A study of Mus musculus with 138 samples.

Results

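Bone morphogenetic protein (BMP) ligands and their secreted antagonists and modulators were followed by 10 genes: the ligands Bmp2, Bmp3, Bmp4, Bmp5, Bmp6, Bmp7 and Gdf10, and the extracellular binding proteins Nog, Chrdl1 and Bmper. The genes are a list of names, drawn up with earlier results of these data known, and they are 10 of 55487 genes counted. All 10 passed the filter on low counts that left 19768 genes for testing. Bulk RNA-seq was made from laser-captured regions of 4 calvarial sutures (coronal, frontal, lambdoid and sagittal) of wild-type C57BL/6J mouse embryos at embryonic days E16.5 and E18.5. No group carried a mutation, transgene or treatment. In each suture the suture mesenchyme (SM), the unossified tissue between the bones, was captured apart from the osteogenic fronts (OFs), the growing bone edges: the frontal bone edge (FR) of the frontal and coronal sutures, the parietal bone edge (PA) of the coronal, lambdoid and sagittal sutures, and the interparietal bone edge (IP) of the lambdoid suture. This gave 20 groups of suture, stage and region, each with 1 library from each of 5 embryos, from 40 embryos in all. SM and OFs of a suture came from the same embryos, different sutures and stages came from different embryos, and stage and litter cannot be told apart. Single-cell RNA-seq was made from the coronal suture of the same strain, with 2 pooled libraries at each stage, and 16 bulk libraries of complete sutures at E18.5, labelled as normalization controls, were reported as values.

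BMPs are secreted signals of the TGF-β superfamily. A ligand dimer joins type I and type II serine/threonine kinase receptors, which phosphorylate SMAD1, SMAD5 and SMAD9, and these enter the nucleus with SMAD4 and act on genes such as the Id, Msx and Dlx families. BMP2, BMP4, BMP5, BMP6 and BMP7 are activating ligands that can induce bone, whereas BMP3 and its close relative GDF10 (also called BMP3B) are known mainly for opposing osteogenic BMP signals. Noggin (Nog) and chordin-like 1 (Chrdl1) bind ligands outside the cell and keep them from their receptors, and BMPER, the relative of the fly protein Crossveinless 2, binds both ligands and chordin and can dampen or promote the signal. Sutures remain unossified while bone forms at their edges, and balance between BMP ligands and antagonists is a known part of that in the calvaria.

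In the mm10 genome build used for the counts, the ligand genes lie at chr2:133552159-133562885 (Bmp2), chr5:98854415-98884396 (Bmp3), chr14:46383520-46390669 (Bmp4), chr9:75775364-75900310 (Bmp5), chr13:38345107-38500302 (Bmp6), chr2:172868012-172940321 (Bmp7) and chr14:33923587-33937983 (Gdf10). The binding proteins lie at chr11:89300638-89302332 (Nog), chrX:143285674-143394262 (Chrdl1) and chr9:23223076-23485200 (Bmper). Read pairs over exons were counted without regard to strand, so reads of overlapping genes cannot be assigned with certainty. By whole gene span, whether or not exons are shared, such genes exist for Bmp4 (Gm15217 and Gm15222 on the other strand). They also exist for Bmp5 (Gm26903 on the other strand and Gm47723 on the same strand) and Bmp6 (4930579J19Rik and Txndc5 on the other strand). No gene of the annotation overlapped the other 7 members.

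RefSeq promoter sequences (GRCm38.p6, 250 bases before to 50 bases after the annotated start) were on hand for 5 of the 10 members: Bmp4, Bmp5, Bmp6, Bmper and Gdf10. The 4 printed here belong to the members that were higher in SM (Bmp5 and Gdf10) and to Bmper and Bmp4, which were lower there. They read 5′ to 3′ on the strand of the gene, and capitals mark matches to the E-box motif CANNTG or to the SMAD motif GGCGCC.
Bmp5, chr9:75775115-75775414, + strand: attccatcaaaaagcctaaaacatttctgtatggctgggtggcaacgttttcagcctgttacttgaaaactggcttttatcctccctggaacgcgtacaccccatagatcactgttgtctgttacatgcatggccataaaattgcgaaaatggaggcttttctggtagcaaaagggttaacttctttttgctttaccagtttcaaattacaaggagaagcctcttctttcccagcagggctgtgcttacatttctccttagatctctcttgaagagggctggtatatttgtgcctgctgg
Gdf10, chr14:33923337-33923636, + strand: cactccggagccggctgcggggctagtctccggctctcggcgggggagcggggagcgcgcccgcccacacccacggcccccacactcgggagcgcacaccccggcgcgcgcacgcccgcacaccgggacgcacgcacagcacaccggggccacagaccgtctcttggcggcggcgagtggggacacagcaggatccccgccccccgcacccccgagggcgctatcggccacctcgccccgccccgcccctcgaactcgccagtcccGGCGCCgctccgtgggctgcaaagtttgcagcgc
Bmper, chr9:23222826-23223125, + strand: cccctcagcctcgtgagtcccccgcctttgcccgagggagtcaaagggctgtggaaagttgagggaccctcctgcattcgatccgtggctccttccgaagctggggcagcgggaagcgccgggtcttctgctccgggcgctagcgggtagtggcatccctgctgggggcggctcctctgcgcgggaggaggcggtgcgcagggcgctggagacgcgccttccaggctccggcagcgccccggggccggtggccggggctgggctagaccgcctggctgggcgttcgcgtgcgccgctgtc
Bmp4, chr14:46390620-46390919, - strand: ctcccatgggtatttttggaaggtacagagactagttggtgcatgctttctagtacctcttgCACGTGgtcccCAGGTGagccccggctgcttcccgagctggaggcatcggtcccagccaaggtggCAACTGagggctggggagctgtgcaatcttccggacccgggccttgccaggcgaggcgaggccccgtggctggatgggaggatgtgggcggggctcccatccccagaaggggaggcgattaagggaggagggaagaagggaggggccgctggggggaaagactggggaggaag
On either strand, Bmp4 held 3 matches to CANNTG, starting at -188, -177 and -123 from the start, Bmp6 held 2, at -127 and -51, and Bmp5, Gdf10 and Bmper held 0. That motif is found in 72.3% of 32544 promoters of the same length. GGCGCC was found once, in Gdf10 at 17 bases after the start, and in 11.9% of all promoters. The RUNX motif TGTGGT was in 0 of the 5 and in 16.7% of all. GC content was 43.3% in Bmp5, 64.0% in Bmp4, 69.3% in Bmp6, 72.7% in Bmper and 77.3% in Gdf10, against a median of 53.0% over all promoters. The 2 members higher in SM, Bmp5 and Gdf10, had the lowest and the highest GC content of the 5.

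Total counts of the 100 first libraries ran from 7305627 to 34518477 (median 14244957), and were highest in the coronal suture (median 23995246) and lowest in the lambdoid suture (median 8904143). Levels are given as counts-per-million (CPM) values after scaling, in the order of embryos 1 to 5 of a group. A count of 1 therefore weighs more in the lambdoid libraries, and Nog, the lowest member, had counts of 0 to 138 per library. The 15 coronal libraries at E16.5 stood apart: they detected 17274 to 22824 genes, against 21273 to 25162 in the coronal suture at E18.5 and 25118 to 28397 in the frontal suture at E16.5, and each correlated with the others of its group at 0.8825 to 0.9315 (0.8984 to 0.9880 for all other first libraries). The library of coronal E16.5 FR embryo 3 stood farthest from its group (0.8825, over genes, with the mean of the others), and second libraries of 18 coronal samples served only as an alternative. Marker genes differed between the captured regions, though less clearly for the lists of the suture mesenchyme itself. Of 11 Hhip suture mesenchyme genes, 8 were higher and 1 lower in SM (976 to 3059 CPM in SM, 776 to 2174 CPM in OF). Of 6 Mest suture mesenchyme genes, 4 were higher and 0 lower (1216 to 2887 CPM in SM, 633 to 1685 CPM in OF). Of 12 osteoblast genes such as Ibsp, 11 were lower and 0 higher in SM, with summed levels (group medians) of 69.0 to 808 CPM in SM and 3909 to 17862 CPM in OF, and of 9 ectocranial mesenchyme genes, 9 were higher in SM (573 to 6065 CPM in SM, 163 to 1935 CPM in OF). Other cells differed between the regions as well: 12 of 12 proliferation genes tested were lower in SM, 7 of 9 chondrocyte genes and 10 of 12 macrophage genes were higher, as were 6 of 9 dura mater genes (143 to 512 CPM in SM, 45.1 to 208 CPM in OF), and the part of these cells in the results below was not tested. In bulk tissue, fewer cells of a type and less RNA per cell cannot be told apart.

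Per length, Bmp4 was the most abundant member. In RPKM, CPM divided by exon length in kilobases, averaged over the 20 groups, with the means of SM and of OF groups in brackets, the order was Bmp4 at 18.4 (SM 16.4, OF 19.7), Bmp3 at 14.8 (SM 6.66, OF 20.2), Bmper at 11.1 (SM 3.76, OF 15.98) and Bmp2 at 8.89 (SM 3.53, OF 12.5). Then came Chrdl1 at 5.78 (SM 3.65, OF 7.20), Bmp7 at 4.88 (SM 3.68, OF 5.68), Gdf10 at 4.22 (SM 5.498, OF 3.37), Bmp6 at 3.49 (SM 3.28, OF 3.63), Bmp5 at 1.62 (SM 2.07, OF 1.33) and Nog at 1.18 (SM 0.730, OF 1.47). The order differed between the regions. In OF the members above 10 RPKM were Bmp3, Bmp4, Bmper and Bmp2, whereas in SM only Bmp4 was above 10, and Bmp3 and then Gdf10 came next. When the 20 groups were ranked by their level of 1 member, few neighbours in that order lay farther apart than their spread. Of 19 gaps between neighbouring groups, the number larger than the standard deviation (SD) was 5 for Bmper, 3 for Bmp2 and for Chrdl1, 1 for Bmp3, Bmp4, Bmp5 and Bmp7, and 0 for Bmp6, Gdf10 and Nog.

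**Figure D1:**
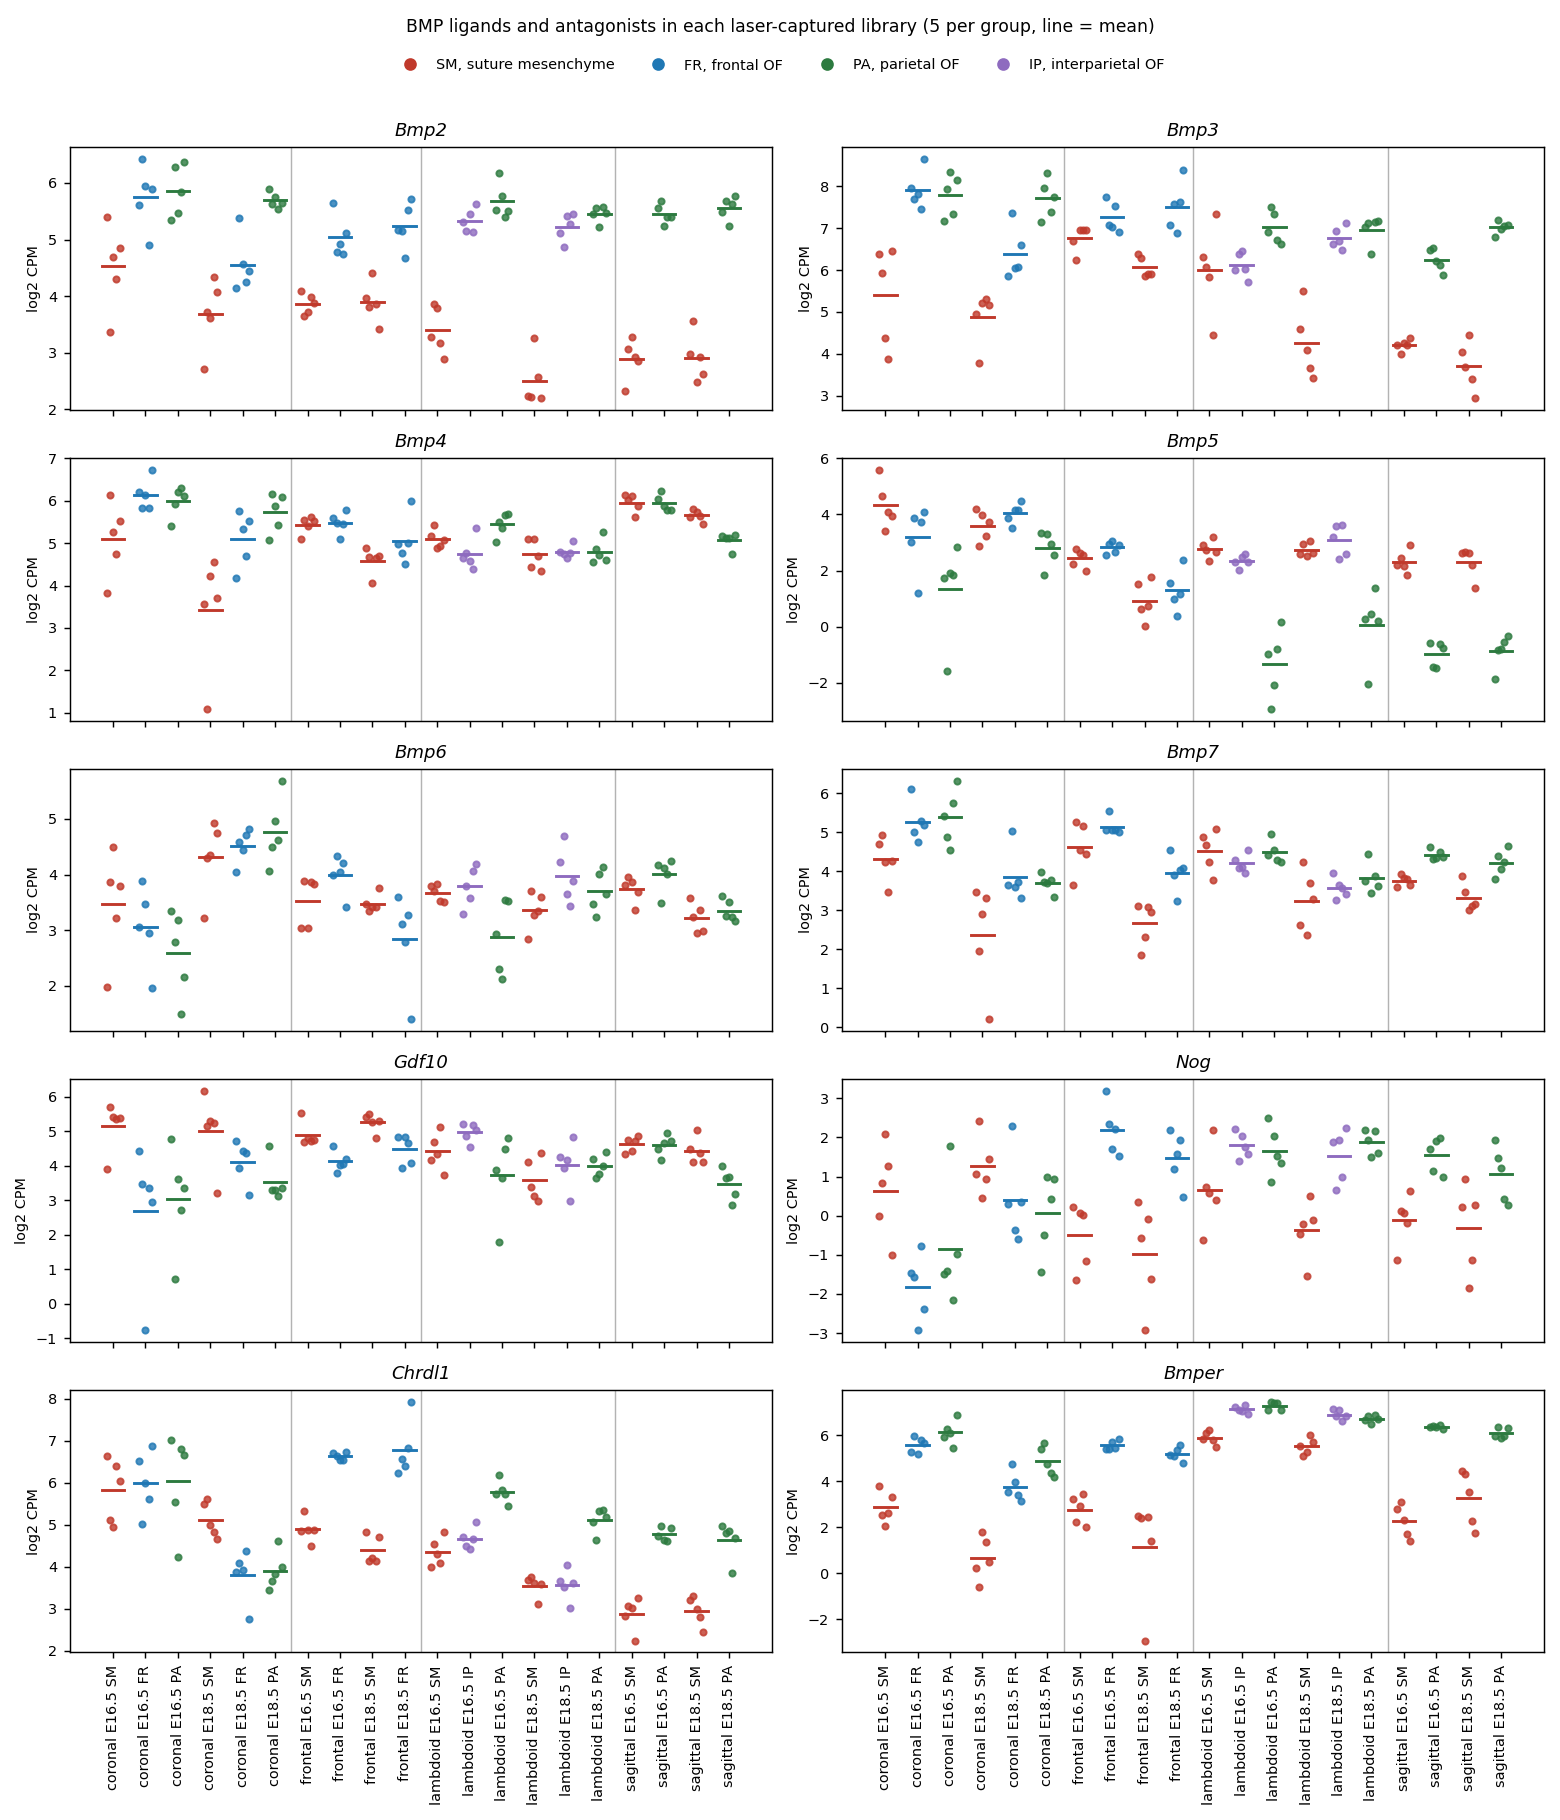
Level of each member (log2 CPM after scaling, y axis) in the 100 first libraries, 1 panel per gene, with the 20 groups of suture, stage and region along the x axis, 1 point per embryo coloured by region and a line at the mean of each group. The group means of Bmp2 and Bmper lay lower in SM than in OF in every suture and stage, Bmp5 lay between 0 and 2.48 CPM in PA of the lambdoid and sagittal sutures, and Nog lay below 10 CPM in every library.

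SM was compared with OF over all sutures and stages, as the mean of the 8 suture-stage pairs, to find which members mark the mesenchyme and which the bone edge. Of the 10 members, 7 were lower in SM (Bmper, Bmp2, Bmp3, Chrdl1, Nog, Bmp7 and Bmp4), 2 were higher (Bmp5 and Gdf10), and Bmp6 did not pass the test. This comparison called 55.4% of all genes tested (27.6% higher and 27.8% lower in SM) and a call by itself was common. With total counts in place of scaling, the median log2 fold change of all genes moved from 0.036 to 0.14 and the share of calls that were higher in SM from 49.8% to 61.7%, and no member that passed changed direction under any scaling. The median log2 fold change was -0.86 over the 10 members and 0.036 over all genes. The largest differences were those of Bmper (log2 fold change -2.70 ± 0.12 (SE), adjusted p = 3.41e-36, 6.51-fold lower), Bmp2 (-1.91 ± 0.086, adjusted p = 2.91e-36, 3.75-fold lower) and Bmp3 (-1.81 ± 0.11, adjusted p = 1.65e-26, 3.51-fold lower). Members with opposite known roles, an activating ligand (Bmp2) and a ligand that opposes osteogenic signals (Bmp3), both had lower levels in SM. Chrdl1 differed by -1.07 ± 0.10 (adjusted p = 1.95e-16), Nog by -1.03 ± 0.22 (adjusted p = 4.26e-05) and Bmp7 by -0.69 ± 0.11 (adjusted p = 3.50e-08). Bmp5 was higher by 1.47 ± 0.15 (adjusted p = 1.29e-14, 2.76-fold) and Gdf10 by 0.66 ± 0.14 (adjusted p = 1.90e-05, 1.58-fold). Bmp4 was only 1.25-fold lower (-0.32 ± 0.091, adjusted p = 0.00167), and its call was lost with total counts in place of scaling and without replicate 5 (log2 fold change -0.20, adjusted p = 0.106). The other 8 calls held in every alternative run on all sutures. Leaving the coronal suture out of the mean, an alternative added after the data were seen, ended the calls of Bmp4 (-0.0083, adjusted p = 0.96) and Gdf10 (0.35, adjusted p = 0.0615). In the mean of the coronal comparisons, Nog (1.55, adjusted p = 0.000696) and Chrdl1 (0.49, adjusted p = 0.0215) were higher in SM. This was opposite in direction to the mean over all sutures, and for Chrdl1 it held at E18.5 but not at E16.5. Both means came from the fit of all groups, not from a fit of the coronal suture by itself. In such a fit, the Nog call against coronal FR at E16.5 and the Chrdl1 calls at coronal E18.5 were lost. Bmp6 differed by -0.022 ± 0.10 (adjusted p = 0.88).

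**Figure D2:**
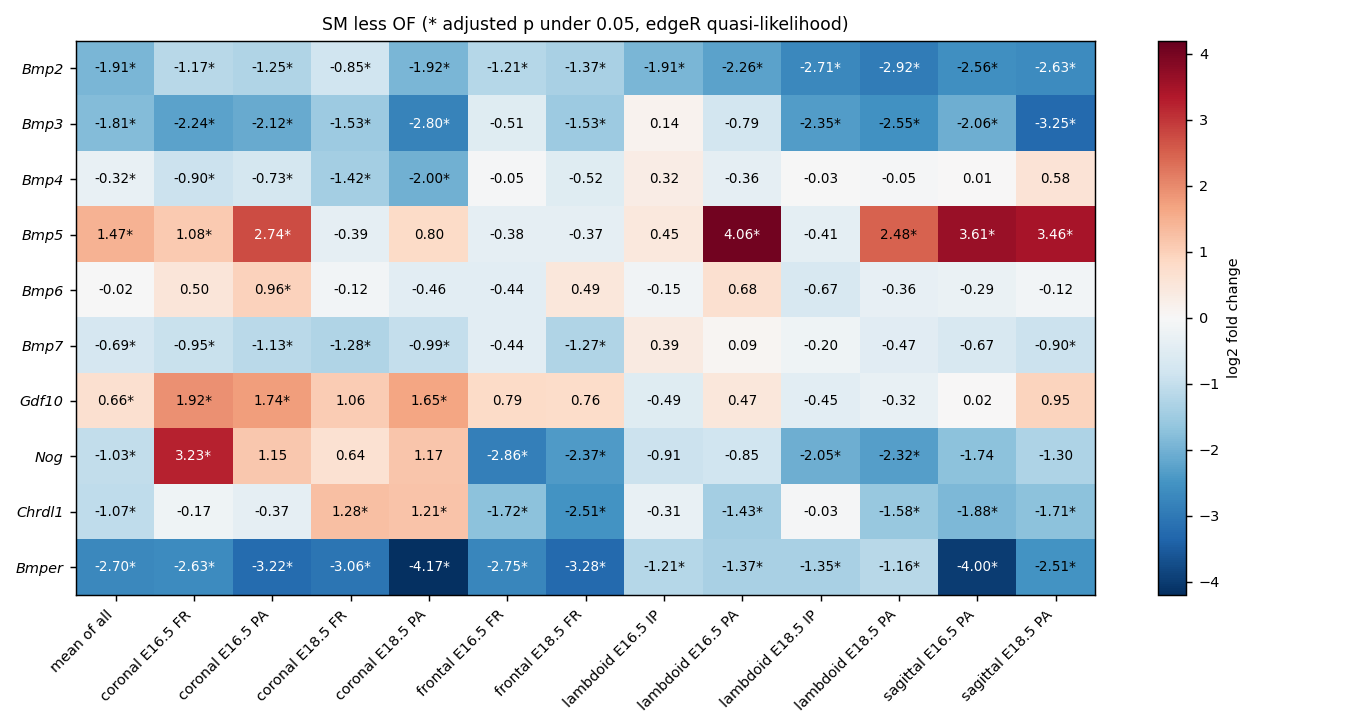
Log2 fold change of SM less OF for each member (rows) in the 12 comparisons of SM with 1 OF of the same suture and stage, and in the mean over all sutures and stages, as a colour scale with the value printed in each cell and an asterisk where the adjusted p was under 0.05. Bmper and Bmp2 lay below 0 in all 12, whereas Nog lay above 0 in the 4 coronal comparisons and Chrdl1 in the 2 coronal comparisons at E18.5, and both lay below 0 in the frontal and sagittal ones.

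Each OF was then compared by itself, in 12 comparisons. Of 120 values of members, 66 passed the test, 13 higher and 53 lower in SM, and 45 of the 66 did so under every alternative. Over all genes, SM differed from FR and PA of the coronal suture in 30.3% and 35.6% of genes tested at E16.5, and in 3.46% and 18% at E18.5. For FR of the frontal suture the shares were 7.91% at E16.5 and 11.1% at E18.5. In the lambdoid suture at E16.5 they were 11.2% for IP and 23.1% for PA, and at E18.5 19.6% for IP and 24.6% for PA. For PA of the sagittal suture they were 17.7% and 25.3%. The comparisons with the 2 OFs of the coronal suture share their SM libraries, as do those of the lambdoid suture, and are not independent. Ranges without overlap and signs of embryo pairs are given below as description, since their shares over all genes were not counted. By member, the calls were spread from 12 of 12 (Bmp2 and Bmper, all lower in SM) to 1 of 12 (Bmp6, higher in SM), and the members are given below by their role.

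Bmp2, an activating ligand with strong bone-inducing activity, was lower in SM in all 12 comparisons. In the lambdoid suture at E18.5, the 5 embryos held 4.57, 4.52, 9.41, 5.79 and 4.46 CPM in SM, 34.4, 29, 42.8, 38.4 and 43.8 CPM in IP and 43.4, 46.8, 37.3, 47.3 and 44.1 CPM in PA. The SM and OF values did not overlap there, and SM held about 6.52-fold less than IP and 7.58-fold less than PA (log2 fold change -2.92 ± 0.27 (SE), adjusted p = 1.64e-15). The sagittal suture was alike, with -2.56 ± 0.26 at E16.5 and -2.63 ± 0.26 at E18.5 on the log2 scale, and values of 4.87 to 9.52 CPM in SM against 37.8 to 50.9 CPM in PA at E16.5. Differences were smaller in the frontal suture (-1.21 ± 0.25 at E16.5 and -1.37 ± 0.25 at E18.5) and, apart from PA at E18.5 (-1.92 ± 0.25, adjusted p = 2.27e-09), in the coronal suture. In the coronal suture at E16.5 the SM embryos held 42.2, 10.2, 25.8, 19.7 and 28.8 CPM and the FR embryos 48.7, 85.3, 61.6, 29.7 and 59.3 CPM, and these ranges overlapped. SM less FR was -1.17 ± 0.24 at E16.5 (adjusted p = 0.000115; -0.77 without replicate 2, which still passed) and -0.85 ± 0.24 at E18.5 (adjusted p = 0.0295). The latter call was lost in 6 of 15 alternatives, among them the embryo as a replicate block and replicates 1, 2 or 3 left out (log2 fold changes of -1.10 to -0.56 with 1 replicate left out, adjusted p up to 0.427). Of 60 pairs of SM and OF of the same embryo, SM was higher in 2.

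Bmp3, which encodes a ligand known to restrain osteogenic BMP signals, was lower in SM in 9 of 12 comparisons, and in 9 of 12 the SM and OF ranges did not overlap. The largest difference was in the sagittal suture at E18.5, where the embryos held 16.3, 12.8, 21.7, 10.3 and 7.55 CPM in SM and 111, 147, 127, 133 and 135 CPM in PA (log2 fold change -3.25 ± 0.36 (SE), adjusted p = 1.39e-12, 9.52-fold). The 3 comparisons that did not pass were all at E16.5. The frontal suture gave -0.51 ± 0.32 (adjusted p = 0.477), the lambdoid IP 0.14 ± 0.32 (adjusted p = 0.893) and the lambdoid PA -0.79 ± 0.33 (adjusted p = 0.0693). The comparison with lambdoid PA passed with the embryo as a replicate block. The lambdoid SM at E16.5 was uneven between embryos, with 78.8, 67.7, 57.1, 21.8 and 161 CPM, and embryo 5 held 161 CPM, above the highest IP embryo. In the coronal suture at E18.5, PA held 141 to 322 CPM and FR 57.7 to 165 CPM, against 13.5 to 39.7 CPM in SM, and the SM-FR call at that stage was lost without replicate 2 (log2 fold change -1.003 in place of -1.53, adjusted p = 0.192). SM was higher in 4 of 60 pairs of the same embryo.

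Bmp7, an activating ligand, was lower in SM in 6 of 12 comparisons: all 4 of the coronal suture, and the frontal and sagittal sutures at E18.5. In the frontal suture at E18.5 the embryos held 8.55, 3.48, 4.80, 8.40 and 7.67 CPM in SM and 23.1, 14.7, 9.31, 16.1 and 16.9 CPM in FR, with no overlap (log2 fold change -1.27 ± 0.34 (SE), adjusted p = 0.00483). Coronal values ran from -0.95 ± 0.32 (FR, E16.5, adjusted p = 0.0168) to -1.28 ± 0.33 (FR, E18.5, adjusted p = 0.00895) on the log2 scale. None of these 6 calls held in every alternative. The FR call at coronal E18.5 was lost without replicate 2 (log2 fold change -0.70) or replicate 5 and when the suture was fitted by itself, and the value lay farther below 0 with second libraries in place of the first. In FR, embryo 2, with 32.4 CPM, was the highest of its FR group, which otherwise held 9.79 to 13.1 CPM. At E16.5 the lambdoid comparisons gave 0.39 ± 0.32 (IP) and 0.089 ± 0.32 (PA), and at E18.5 -0.20 ± 0.33 (IP) and -0.47 ± 0.33 (PA), with adjusted p from 0.321 to 0.889.

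Bmp4, an activating ligand needed early in skull and limb formation, was lower in SM in 4 of 4 comparisons of the coronal suture and in 0 of 8 of the other sutures. At E18.5 the coronal embryos held 11.6, 2.00, 18.47, 23.5 and 13.01 CPM in SM, 17.9, 53.8, 40.1, 25.6 and 46.0 CPM in FR and 33.8, 71.7, 58.6, 42.8 and 67.9 CPM in PA. SM and PA did not overlap (log2 fold change -2.003 ± 0.28 (SE), adjusted p = 2.41e-08, 4.01-fold), and this was the 1 Bmp4 call that held in every alternative. The other 3 coronal values were -1.42 ± 0.28 against FR at E18.5 (adjusted p = 0.000246), and -0.90 ± 0.27 against FR (adjusted p = 0.00828) and -0.73 ± 0.27 against PA (adjusted p = 0.0281) at E16.5. The E18.5 FR call was lost when the suture was fitted by itself and with second libraries in place of the first (-0.91; adjusted p up to 0.103). The E16.5 calls were lost in 4 (FR, adjusted p up to 0.156) and 6 (PA, adjusted p up to 0.230) of 15 alternatives, and SM less PA was -1.26 with second libraries. In the sagittal suture at E18.5 SM held 48.7, 56.2, 53.4, 49.9 and 44.0 CPM and PA 36.1, 34.8, 34.4, 26.8 and 36.4 CPM, without overlap and in the other direction, but the value did not pass the test (log2 fold change 0.58 ± 0.27 (SE), adjusted p = 0.114). SM was higher in 22 of 60 embryo pairs.

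Bmp5, an activating ligand, set parietal bone edges apart from SM. It was higher in SM in 6 of 12 comparisons: 5 of the 6 with PA (coronal at E16.5, and lambdoid and sagittal at both stages) and that with coronal FR at E16.5. In the sagittal suture at E16.5 the embryos held 4.48, 5.25, 4.30, 3.45 and 7.38 CPM in SM and 0.536, 0.236, 0.228, 0.527 and 0.462 CPM in PA (log2 fold change 3.61 ± 0.51 (SE), adjusted p = 1.59e-08, 12.2-fold), and at E18.5 6.09, 6.17, 6.09, 4.42 and 2.47 CPM in SM and 0.142, 0.434, 0.450, 0.551 and 0.670 CPM in PA. SM and PA did not overlap at either stage, with 2 to 10 counts per PA library. In the lambdoid suture at E16.5 SM held 7.38, 6.47, 4.89, 9.01 and 6.19 CPM, PA 0.381, 0, 0.102, 0.446 and 0.987 CPM and IP 4.84, 3.87, 5.40, 5.89 and 4.77 CPM. The PA libraries held 0 to 11 counts, and SM was clear of PA (log2 fold change 4.06 ± 0.54 (SE), adjusted p = 1.70e-09) but not of IP (log2 fold change 0.45 ± 0.44 (SE), adjusted p = 0.639). Coronal FR at E16.5 was the weakest call (log2 fold change 1.08 ± 0.43, adjusted p = 0.0465); it was lost in 8 of 15 alternatives (adjusted p up to 0.758), the replicate block among them, and was -0.24 with second libraries in place of the first. The 3 sutures with a PA edge gave SM higher than PA in 30 of 30 embryo pairs, and all regions gave 41 of 60. The span of Bmp5 overlaps those of Gm26903 and Gm47723, and whether they share counted reads was not measured.

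Bmp6, an activating ligand, passed the test least often. It was higher in SM in 1 of 12 comparisons, with coronal PA at E16.5 (SM 3.78, 14.5, 22.5, 9.16 and 13.8 CPM, PA 10.0, 6.78, 8.94, 2.67 and 4.33 CPM), and the groups overlapped (log2 fold change 0.96 ± 0.31 (SE), adjusted p = 0.0116). That call was lost in 3 of 15 alternatives (adjusted p up to 0.142), including without replicate 3 or replicate 4. The other 11 log2 fold changes lay between -0.67 and 0.68, with adjusted p of 0.117 to 0.931.

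Gdf10, the close relative of Bmp3, was higher in SM in 3 of 12 comparisons, all coronal. At E16.5 the coronal embryos held 15.02, 51.8, 42.8, 40.8 and 42.2 CPM in SM, 21.7, 11.1, 0.461, 10.1 and 7.66 CPM in FR and 27.2, 1.51, 12.2, 6.48 and 10.1 CPM in PA. Embryo 1 broke the pattern, with the lowest SM value and the highest FR and PA values of the group, so that ranges overlapped. SM less FR was 1.92 ± 0.43 (adjusted p = 0.000289) and SM less PA 1.74 ± 0.42 (adjusted p = 0.000675). The latter was lost when the suture was fitted by itself (adjusted p = 0.0506). At E18.5 SM less PA was 1.65 ± 0.42 (adjusted p = 0.00246) and was lost when the suture was fitted by itself and with second libraries in place of the first (adjusted p up to 0.209), and SM less FR was 1.06 ± 0.42 (adjusted p = 0.168). Outside the coronal suture, Gdf10 did not overlap between SM and OF in the frontal suture at E16.5 (46.5, 25.6, 27.7, 26.2 and 26.7 CPM in SM, 23.6, 13.9, 16.1, 16.49 and 18.3 CPM in FR) or the sagittal suture at E18.5, where adjusted p were 0.323 and 0.0896. SM was higher in 38 of 60 embryo pairs. Over all sutures Bmp3 was lower and Gdf10 higher in SM, but in the lambdoid suture both values were below 0 (-1.39 ± 0.21 for Bmp3 and -0.20 ± 0.26 for Gdf10, both stages averaged), and without the coronal suture Gdf10 did not pass, as given above.

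Bmper, the modulator that binds ligands and chordin, lay apart in SM and OF in every suture. SM was lower in 12 of 12 comparisons, the ranges did not overlap in 12 of 12, and SM was lower in 60 of 60 embryo pairs. In the coronal suture at E18.5 the embryos held 1.03, 0.534, 3.34, 2.45 and 1.29 CPM in SM, 11.5, 27.1, 15.4, 10.3 and 8.65 CPM in FR and 42.0, 50.6, 27.2, 20.4 and 17.8 CPM in PA (18.1-fold lower than PA, log2 fold change -4.17 ± 0.39 (SE), adjusted p = 6.33e-15). The sagittal suture at E16.5 came next, with 6.73, 8.55, 4.88, 3.14 and 2.53 CPM in SM and 83.1, 85.4, 81.5, 86.3 and 77.6 CPM in PA (15.98-fold lower, log2 fold change -4.00 ± 0.38 (SE), adjusted p = 4.19e-15). The lambdoid suture held the highest Bmper of all, in SM as in OF. Its SM held 45.9, 34.3, 38.9, 65.3 and 52.2 CPM at E18.5 and its IP 139.8, 114, 138, 97.2 and 114 CPM, and the difference was the smallest of the 4 sutures (-1.16 ± 0.33 against PA at E18.5, adjusted p = 0.00532). The SM-IP call at E16.5 was lost without replicate 1 or replicate 4 (adjusted p up to 0.0751), and the other 11 held in every alternative.

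Nog, the antagonist that binds BMP2, BMP4 and BMP7, was low everywhere and ran in opposite directions in different sutures. In the frontal suture at E16.5 the embryos held 1.03, 0.187, 0.924, 0.881 and 0.318 CPM in SM and 8.96, 4.99, 3.101, 4.48 and 2.75 CPM in FR, without overlap (log2 fold change -2.86 ± 0.69 (SE), adjusted p = 0.0021). Nog was lower in SM also in the frontal suture at E18.5 (-2.37 ± 0.70, adjusted p = 0.0143; lost without replicate 5) and in the lambdoid suture at E18.5 (-2.05 ± 0.69 against IP and -2.32 ± 0.70 against PA, adjusted p = 0.0244 and 0.008), and the IP call was lost without replicate 1, 3 or 5. In the coronal suture at E16.5, SM held 0.857, 1.67, 4.11, 2.29 and 0.362 CPM and FR 0.230, 0.204, 0, 0.451 and 0.0584 CPM, with 0 to 9 counts per FR library, and SM was higher in all 5 embryos (log2 fold change 3.23 ± 0.73 (SE), adjusted p = 0.000329). It was the only Nog call higher in SM among the 12 comparisons, and the other coronal comparisons did not pass. The call was lost when the suture was fitted by itself and with first and second libraries summed. It was also lost with second libraries in place of the first (log2 fold change 0.44, adjusted p = 0.714). The embryo pairs split by suture: SM was higher in 18 of 20 coronal pairs and in 3 of 40 others.

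Chrdl1, an antagonist of the chordin family, also ran in both directions. SM was lower in the frontal and sagittal sutures at both stages and against lambdoid PA at both stages (6 calls), and higher in the coronal suture at E18.5 (2 calls). In the frontal suture at E18.5, SM held 28.2, 17.5, 18.2, 17.3 and 25.9 CPM and FR 74.9, 94.1, 84.6, 113 and 243 CPM (log2 fold change -2.51 ± 0.31 (SE), adjusted p = 4.74e-10, 5.68-fold), with the FR value of embryo 5 far above the others. That FR library stood apart, with 20627 genes detected against 23864 to 25244 in the other 4 and a correlation of 0.8984 with its group; the log2 fold changes with 1 replicate left out ran from -2.78 to -2.17. At coronal E18.5, SM held 45.1, 48.4, 31.7, 28.2 and 25.05 CPM, FR 14.5, 16.8, 15.04, 20.6 and 6.64 CPM and PA 10.7, 12.4, 14.02, 24.3 and 15.8 CPM, and SM was clear of both OFs (SM less FR 1.28 ± 0.30, adjusted p = 0.00303; SM less PA 1.21 ± 0.30, adjusted p = 0.00146). Both coronal calls were lost only when the suture was fitted by itself. At coronal E16.5 the values lay below 0 and did not pass (SM less FR -0.17 ± 0.29, adjusted p = 0.702; SM less PA -0.37 ± 0.29, adjusted p = 0.327), with 30.6 to 98.6 CPM in SM, 32.0 to 118 CPM in FR and 18.46 to 129 CPM in PA. SM was higher in 14 of 20 coronal pairs and in 4 of 40 others.

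The 2 OFs of the same suture were compared next, FR with PA in the coronal and IP with PA in the lambdoid suture. Of 40 values, 8 passed: 3 higher (Bmp5) and 5 lower, and only 1 of the 8, Bmp5 in the lambdoid suture at E16.5, passed in every alternative. Over all genes, FR and PA of the coronal suture differed in 14.4% at E16.5 and 5.45% at E18.5, and IP and PA of the lambdoid suture in 0.486% and 0.0101%. Bmp5 was lower in PA than in the other OF in 3 of 4 comparisons. FR less PA of the coronal suture was 1.65 ± 0.44 at E16.5 (adjusted p = 0.00646) and 1.19 ± 0.43 at E18.5, which did not pass (adjusted p = 0.0923), and IP less PA of the lambdoid suture 3.61 ± 0.53 (adjusted p = 1.75e-05) and 2.89 ± 0.49 (adjusted p = 0.00103). The lambdoid comparison at E18.5 called 2 genes in all, and both were members: Bmp5 (9.11, 11.9, 5.14, 12.05 and 5.89 CPM in IP, 1.08, 0.112, 1.25, 2.48 and 1.01 CPM in PA) and Chrdl1 (log2 fold change -1.54 ± 0.31 (SE), adjusted p = 0.0243). Since the members were chosen with earlier results of these data known, that both were members is not independent of the choice. The Bmp5 call there was lost with limma-voom and without replicate 1 (adjusted p up to 0.423), and the Chrdl1 call in 7 of 15 alternatives (adjusted p up to 1.0), among them each replicate left out. The other lower calls, in FR against coronal PA, were Bmp2 (-1.07 ± 0.24, adjusted p = 0.00219), Bmp3 (-1.28 ± 0.33, adjusted p = 0.00747) and Bmper (-1.11 ± 0.33, adjusted p = 0.0282) at E18.5, and Nog at E16.5 (-2.08 ± 0.71, adjusted p = 0.0365). All 4, and the Bmp5 call at coronal E16.5, were lost when the suture was fitted by itself. The Bmp3 call was also lost without replicate 1 or replicate 3 (adjusted p up to 0.148), and the Bmper call in 8 of 15 alternatives (adjusted p up to 0.469). The summed osteoblast genes moved with the 3 calls at E18.5, at 3758 to 9115 CPM (median 3909) in FR and 9118 to 19055 CPM (median 11807) in PA, without overlap, and their part was not tested. Embryo 3 of coronal PA held 3.31 CPM of Nog and the other 4 held 0.0920 to 0.379 CPM. Without replicate 3 the Nog difference was 0.047, and it was also lost with the replicate block and with second libraries in place of the first (1.55).

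Because embryos are not shared between sutures, sutures were tested against each other only in the difference of SM less OF. The mean over the coronal suture, less the mean over the others, passed the test for 6 of 10 members, against 21.3% of genes (12.8% higher and 8.45% lower in the coronal suture). With total counts in place of scaling, 76.5% of the genes called were higher in the coronal suture, against 60.2% with scaling, and the median of all genes moved from 0.086 to 0.17. The largest values were those of 2 antagonists: Nog was 3.44 ± 0.46 (adjusted p = 8.83e-09) and Chrdl1 2.07 ± 0.21 (adjusted p = 1.83e-13) on the log2 scale. By suture, SM less OF of Nog was 1.55 ± 0.38 in the coronal, -2.62 ± 0.49 in the frontal, -1.53 ± 0.43 in the lambdoid and -1.52 ± 0.47 in the sagittal suture. For Chrdl1 the same values were 0.49 ± 0.18, -2.11 ± 0.21, -0.84 ± 0.19 and -1.80 ± 0.22, and the coronal value averages E18.5, where both comparisons were above 0, and E16.5, where both were below 0. Gdf10 (1.24 ± 0.30 (adjusted p = 0.000993)) was also higher in coronal SM relative to OF, and Bmp2 (0.81 ± 0.18 (adjusted p = 0.000259)) was less far below OF in coronal SM than in the mean of the others. For Bmp2 the values by suture were -1.30 ± 0.16 in the coronal, -1.29 ± 0.18 in the frontal, -2.45 ± 0.17 in the lambdoid and -2.59 ± 0.18 in the sagittal suture, and the coronal value lay apart from the lambdoid and sagittal ones but not from the frontal one. Bmp4 (-1.25 ± 0.20 (adjusted p = 1.34e-06)) was lower in coronal SM, with -1.26 ± 0.18 in the coronal suture against -0.29 ± 0.19, -0.03 ± 0.17 and 0.29 ± 0.19 in the frontal, lambdoid and sagittal sutures. Bmper (-0.76 ± 0.26 (adjusted p = 0.0253)) passed but was lost in 7 of 14 alternatives (adjusted p up to 0.807), the replicate block among them, and with second libraries in place of the first it was 0.14. By suture, Bmper was -3.27 ± 0.25 in the coronal, -3.01 ± 0.26 in the frontal, -1.27 ± 0.21 in the lambdoid and -3.25 ± 0.26 in the sagittal suture. Its coronal value lay apart from the lambdoid value but not from the frontal and sagittal ones. Bmp3 (-0.49 ± 0.24 (adjusted p = 0.137)), Bmp5 (-0.55 ± 0.32 (adjusted p = 0.226)), Bmp6 (0.32 ± 0.22 (adjusted p = 0.326)) and Bmp7 (-0.52 ± 0.24 (adjusted p = 0.0991)) did not pass. In the same comparison 9 of 12 osteoblast genes and 12 of 12 proliferation genes tested were higher in coronal SM relative to OF, and 8 of 9 endothelial genes; their part in the member values was not tested.

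**Figure D3:**
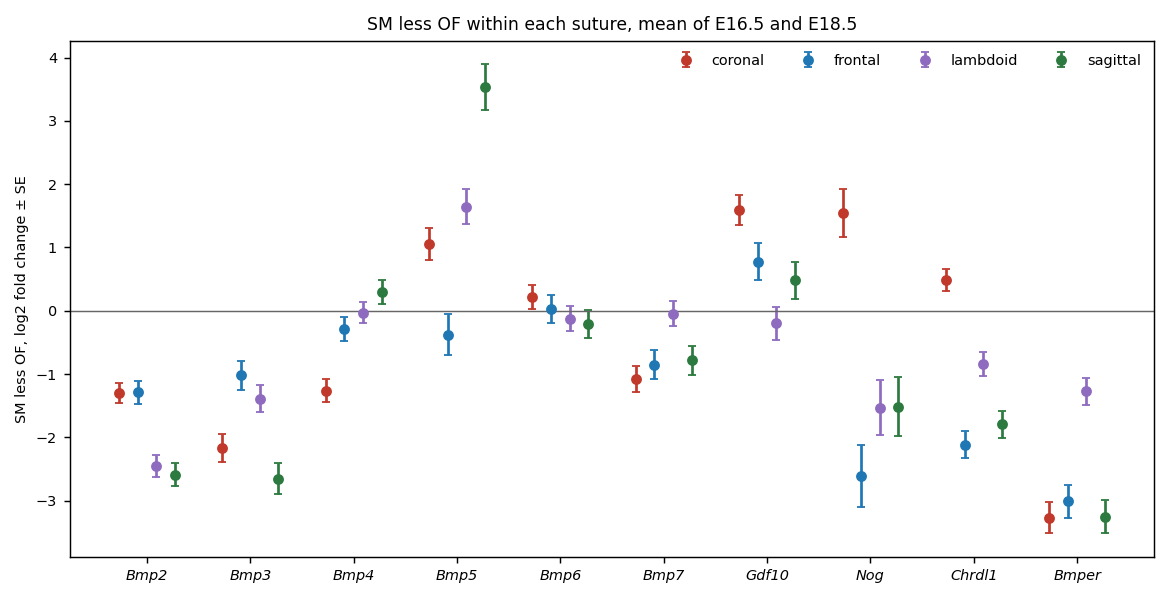
Mean log2 fold change of SM less OF in each suture (both stages averaged), for each member, with bars of 1 standard error, in 4 colours by suture. Nog and Chrdl1 lay above 0 in the coronal suture and below 0 in the other 3, and Bmp4 lay lower in the coronal suture than in the other 3.

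E18.5 was compared with E16.5, first over all regions. Of the 10 members, 6 were lower at E18.5 (Bmp7, Chrdl1, Bmper, Bmp4, Bmp3 and Bmp2) and 1 was higher (Bmp6), against 24.8% of all genes (12.2% higher and 12.5% lower). Bmp7 fell most, -1.10 ± 0.10 (adjusted p = 2.22e-15) on the log2 scale, followed by Chrdl1 at -0.83 ± 0.094 (adjusted p = 9.28e-12), Bmper at -0.66 ± 0.11 (adjusted p = 7.81e-07) and Bmp4 at -0.61 ± 0.087 (adjusted p = 2.13e-08). Bmp2 (-0.32 ± 0.078 (adjusted p = 0.000999)), Bmp3 (-0.36 ± 0.10 (adjusted p = 0.00486)) and Bmp6 (0.26 ± 0.10 (adjusted p = 0.0424)) changed by less; the Bmp6 call was lost in 8 of 13 alternatives (adjusted p up to 0.164) and the Bmp3 call without replicate 1. Bmp5 (0.046 ± 0.14 (adjusted p = 0.866)), Gdf10 (-0.12 ± 0.13 (adjusted p = 0.552)) and Nog (0.11 ± 0.20 (adjusted p = 0.748)) did not pass. Stage and litter cannot be told apart in any of these differences. The 50 libraries of a stage came from 20 embryos, 2 or 3 regions of each, and since these SEs and p-values treat the libraries as independent, they may be too small.

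By region, 24 of 100 values passed, 3 higher (Bmp6 in coronal FR and PA, Nog in coronal FR) and 21 lower (Bmp6 in frontal FR among them), and 10 of them in every alternative. The share of all genes called was 27.1% in SM, 24.4% in FR and 20.6% in PA of the coronal suture. It was 2.33% in SM and 4.34% in FR of the frontal suture, 2.96%, 0.288% and 0.986% in SM, IP and PA of the lambdoid suture, and 1.12% and 1.6% in SM and PA of the sagittal suture. Marker genes and libraries moved with stage in the coronal suture, where most of these calls stood. The summed osteoblast genes of coronal FR ran from 9724 to 18036 CPM (median 14333) at E16.5 and from 3758 to 9115 CPM (median 3909) at E18.5, and the 6 periosteal genes had medians of 5322 to 5378 CPM in the 3 coronal regions at E16.5 and 10010 to 12518 CPM at E18.5. Coronal libraries at E16.5 also detected fewer genes, as given above, and the part of these differences in the calls was not tested. Bmp7 was lower at E18.5 in 10 of 10 regions and passed in 6. In coronal SM it fell from 25.6, 30.02, 18.8, 11.0 and 19.1 CPM to 10.9, 3.74, 7.41, 9.72 and 1.02 CPM (embryos 1 to 5 of each stage, not the same animals; -1.67 ± 0.33 (adjusted p = 5.57e-05)). The ranges did not overlap there, and neither did those of frontal SM (12.4, 38.3, 23.3, 35.6 and 21.5 CPM at E16.5, 8.55, 3.48, 4.80, 8.40 and 7.67 CPM at E18.5; -1.98 ± 0.34 (adjusted p = 3.77e-05)). Chrdl1 fell in coronal FR (-2.26 ± 0.30 (adjusted p = 1.97e-08)) and PA (-2.40 ± 0.31 (adjusted p = 8.87e-09)), and PA held 129, 46.0, 18.46, 112 and 101 CPM at E16.5 and 10.7, 12.4, 14.02, 24.3 and 15.8 CPM at E18.5. Bmp4 fell in coronal SM (-1.51 ± 0.28 (adjusted p = 2.06e-05)). The value was -0.91 without replicate 2, and with second libraries in place of the first it was -0.44 and did not pass (adjusted p = 0.41). Nog was higher at E18.5 in coronal FR (3.04 ± 0.72 (adjusted p = 0.00101)), where second libraries gave -0.30. Bmp6 had higher levels at E18.5 in coronal FR (1.36 ± 0.31 (adjusted p = 0.000735), lost when the suture was fitted by itself, adjusted p = 0.0591) and PA (2.15 ± 0.32 (adjusted p = 4.55e-07)). It was lower at E18.5 in 5 of the 10 regions, and passed in 1 of them, frontal FR (-1.03 ± 0.32 (adjusted p = 0.0427)), where the call was lost in 8 of 14 alternatives (adjusted p up to 0.231).

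The difference of SM less OF itself changed between the stages for 1 member. Bmp3 gave -1.08 ± 0.22 on the log2 scale (adjusted p = 0.00293), so that SM was lower relative to OF at E18.5, and this comparison called 0.703% of all genes. Of the genes called, 43.9% were higher, against 55.2% with limma-voom, 30.6% with total counts, and 33.3% and 27.6% without replicates 1 and 4. The call was lost without replicate 5 (-0.69, adjusted p = 0.19), which holds the lambdoid E16.5 SM library of 161 CPM, and the other 9 members did not pass. The proliferation genes were summed at medians of 1106 to 2822 CPM at E16.5 and 654 to 2370 CPM at E18.5; their part was not tested.

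**Figure D4:**
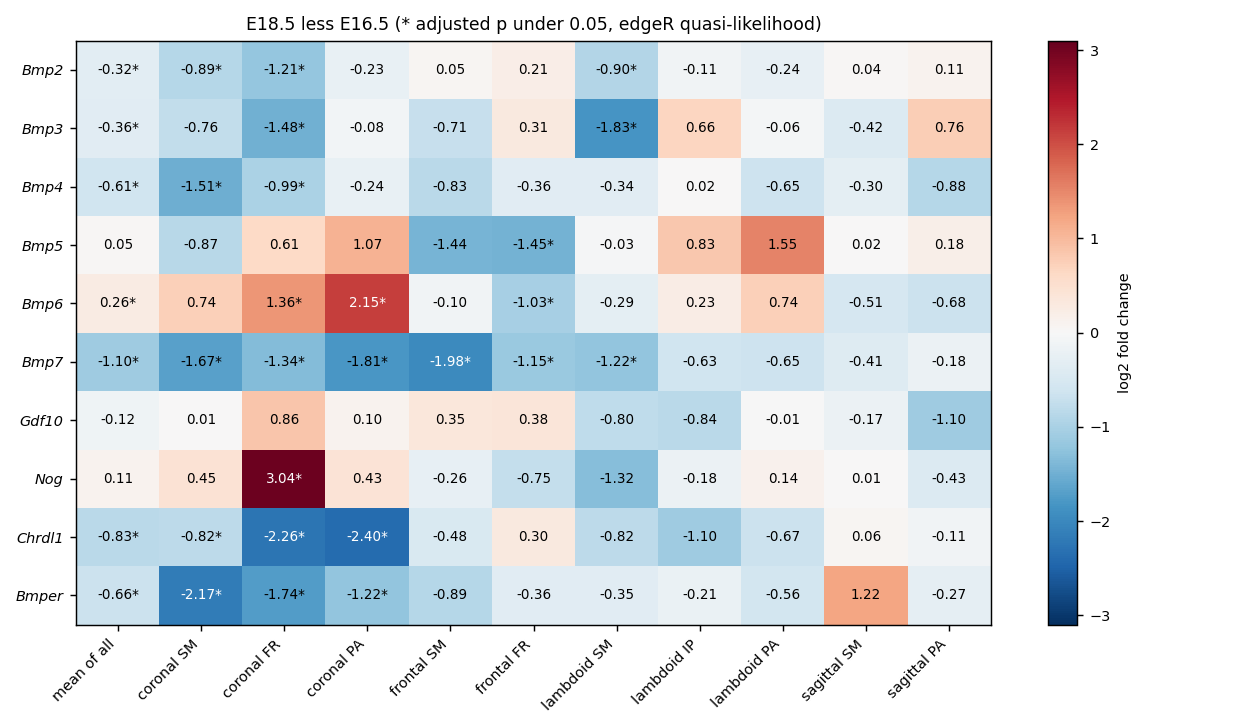
Log2 fold change of E18.5 less E16.5 for each member in the 10 regions and over all regions, as a colour scale with the value printed in each cell and an asterisk where the adjusted p was under 0.05. Bmp7 lay below 0 in all 10 regions, and most asterisks of single regions stood in the 3 coronal regions.

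The rest of the pathway was described from lists of gene names chosen with earlier results of these data in view, as counts only. Values are log2 fold changes of SM less OF ± SE over all sutures and stages, and the lists are read against the 27.6% of all genes that were higher and the 27.8% that were lower, and a list's median log2 fold change against the 0.036 of all genes. Of 17 other BMP and related ligands, 10 were tested, and 6 were higher and 3 lower in SM (median 0.74). Bmp8a, an activating ligand, was -5.95 ± 0.27 and Gdf6, which acts in joint and skull development, was 4.07 ± 0.57 (1.29 CPM in SM and 0.0877 CPM in OF). Of the other secreted antagonists, 18 were tested, and 11 were higher and 3 lower in SM (median 0.69). Grem1, which encodes gremlin and binds BMP2 and BMP4, was 1.98 ± 0.26 (3.95 CPM in SM and 1.05 CPM in OF), whereas Cer1 was -4.71 ± 0.35 (0.144 CPM in SM and 4.38 CPM in OF). Of the receptors and co-receptors, 12 were tested, and 6 were higher and 2 lower in SM (median 0.18). The largest value was that of Bambi, a decoy receptor without kinase activity, -2.54 ± 0.092 (9.34 CPM in SM and 58.5 CPM in OF), and Rgma, a co-receptor, was 1.19 ± 0.12. Of the SMADs and their regulators, 11 were tested, and 2 were higher and 3 lower in SM (median -0.042), with Smad9, which carries the signal of BMP receptors, at -2.01 ± 0.089. Of the response genes, 15 were tested, and 2 were higher and 9 lower in SM (median -0.76), with Dlx3 at -5.87 ± 0.22, Sp7, the osteoblast transcription factor, at -3.27 ± 0.11, and Msx2 higher at 1.29 ± 0.071. Of the chordin-cleaving proteases and their enhancers, 4 were tested, and 2 were higher and 2 lower in SM (median -0.086). Bmp1, which cleaves chordin, was 0.44 ± 0.053 and Pcolce2 -3.59 ± 0.22. Sp7 is also an osteoblast marker, and Bambi, Smad6 and Smad7 stand in more than one list.

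For each member, up to 3 genes whose levels were most alike over the 20 group means are given with Pearson's r as a description, since the groups share libraries, sutures and stages. They were Adamts18 (0.9716), 1700066M21Rik (0.9661), Gm26930 (0.9598) for Bmp2, Ildr2 (0.9235), Lifr (0.9067), Cadm1 (0.8783) for Bmp3, Gm19972 (0.9281), Gm13604 (0.9206), Rhbdl3 (0.9095) for Bmper and Cftr (0.8566), Nars2 (0.7938) for Chrdl1, where the last gene of the 3 has no name in the annotation used. For Bmp7 they were Unc5c (0.8440) and Sfrp1 (0.7972), of which Sfrp1 encodes a secreted Wnt antagonist, and for Bmp4 Il17ra (0.7793), Tmem29 (0.7496), Hnrnpul1 (0.7119). For Gdf10 they were Cep112os1 (0.8382), Dse (0.8376), Gm47026 (0.8294), for Nog Gm44001 (0.8759), Gm42895 (0.8242), Cenpu (0.8216) and for Bmp6 S100a4 (0.7872), Duoxa1 (0.7734), 1110020A21Rik (0.7584). For Bmp5 they were Gm26903 (0.8746), Gm47723 (0.8598), Dock10 (0.8103). The first 2 are the genes whose spans overlap that of Bmp5, and whether they share counted reads was not measured.

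Cell clusters of the coronal suture were then compared for the members they held. The 2 libraries at E16.5 kept 466 and 337 cells after filters, with median UMI counts of 2501 and 2121. Those at E18.5 kept 2412 and 1577 cells, with medians of 18476 and 7131. Chemistry also changed with age, from v3 at E16.5 to v2 at E18.5, and the effects of both cannot be told apart. The E18.5 matrices carry the code of the earlier age in their names while the labels give E18.5. Cell barcodes shared between libraries numbered 1 at E16.5, 5 at E18.5 and 0 between the ages, and doublets were not called. Levels are CPM of the UMIs summed over all cells of a cluster, with exact Poisson 95% intervals that cover counting error only. They have no test, since there are 2 libraries per age, and the members took no part in the clustering or naming. As a reference, the level at E18.5 in macrophage-like cells, which should lack most members, is given for each member apart from Bmp6. The background of RNA from outside the cells was not estimated, and whether macrophage-like cells express a member was not tested.

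Bmp3 was highest in osteoblast-like cells at E18.5, at 107 (98.98 to 116) CPM, against 5.90 (4.41 to 7.74) in ectocranial mesenchyme-like cells and 4.78 (3.31 to 6.67) in macrophage-like cells, whose intervals overlapped. The libraries gave 91.7 (80.9 to 104) and 121 (109 to 134). Bmp2 was 70.0 (59.6 to 81.6) in chondrocyte-like and 64.1 (57.8 to 71.0) in osteoblast-like cells, but macrophage-like cells held 45.8 (41.0 to 51.0), and 51.3 (45.8 to 57.3) in library 1 and 12.7 (6.78 to 21.8) in library 2. Of the 130 chondrocyte-like cells at E18.5, 119 came from library 1. Hhip suture mesenchyme-like cells held 15.3 (11.3 to 20.3) of Bmp2 and 7.65 (4.90 to 11.4) of Bmp3. Gdf10 stood apart from Bmp3: it was 114 (105 to 125) in dura mater-like cells and 85.8 (74.4 to 98.6) in chondrocyte-like cells, and 6.64 (4.72 to 9.07) in osteoblast-like cells. The unnamed cluster S3, with the dura mater markers Nppc and Matn4 among its leading genes, held 85.4 (78.9 to 92.3) of Gdf10. The dura mater-like name at E18.5 rested on Atp1b1, 1500015O10Rik and Fxyd5, the fewest markers the naming rule allowed. The hypodermis markers Mfap5 and Igfbp6 also led that cluster. At E16.5 the dura mater markers of both clusters led a single cluster. Whether S3 holds dura mater cells was not tested, so levels called dura mater-like at E18.5 describe the named cluster only. Macrophage-like cells held 6.88 (5.09 to 9.10) of Gdf10, so the osteoblast-like level was no higher than theirs. By library, dura mater-like cells held 113 (103 to 124) and 131 (94.3 to 177) of Gdf10. Bmp4 was spread, at 39.4 (33.7 to 45.7) in dura mater-like, 38.5 (34.5 to 42.8) in ectocranial and 37.4 (32.6 to 42.7) in osteoblast-like cells, and 4.79 (3.56 to 6.32) in Mmp13 osteoblast-like cells, within the interval of the 4.07 (2.73 to 5.85) in macrophage-like cells. Bmp5 was highest in pericyte-like cells, at 45.03 (30.6 to 63.9), with 48.0 (29.3 to 74.1) in library 1 and 40.5 (20.2 to 72.4) in library 2, against 7.33 (4.65 to 11.0) in Hhip suture mesenchyme-like cells and 1.40 (0.674 to 2.58) in macrophage-like cells. Bmp6 gave 21 UMIs in all at E18.5, too few for a comparison of clusters. Bmp7 was 29.4 (24.5 to 34.99) in dura mater-like, 14.8 (11.9 to 18.3) in osteoblast-like and 1.26 (0.578 to 2.40) in macrophage-like cells. In dura mater-like cells the libraries gave 29.3 (24.2 to 35.1) and 31.2 (14.9 to 57.3) of Bmp7.

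Nog was 32.9 (27.7 to 38.8) in dura mater-like, 32.6 (28.9 to 36.6) in ectocranial mesenchyme-like and 31.9 (28.6 to 35.5) in Mmp13 osteoblast-like cells, against 3.51 (2.27 to 5.18) in macrophage-like cells. The 4.93 (3.30 to 7.09) of Nog in osteoblast-like cells lay within the interval of the macrophage-like cells. By library, Nog was 34.0 (29.98 to 38.3) and 22.1 (14.03 to 33.2) in ectocranial mesenchyme-like, 32.02 (26.7 to 38.1) and 43.6 (23.8 to 73.2) in dura mater-like and 32.5 (29.1 to 36.3) and 20.6 (10.3 to 36.8) in Mmp13 osteoblast-like cells, so their order differed between the libraries. Of the 518 Mmp13 osteoblast-like cells, 480 came from library 1. Chrdl1 was 14.6 (12.2 to 17.4) in ectocranial mesenchyme-like, 3.74 (2.35 to 5.67) in osteoblast-like and 0.421 (0.0869 to 1.23) in macrophage-like cells. Bmper was 26.5 (23.3 to 30.2) in ectocranial and 25.7 (21.1 to 31.0) in dura mater-like cells, 11.6 (8.98 to 14.7) in osteoblast-like cells, 2.87 (1.31 to 5.45) in Hhip suture mesenchyme-like cells and 1.55 (0.771 to 2.76) in macrophage-like cells. The libraries gave 27.0 (23.5 to 30.9) and 23.1 (14.8 to 34.4) of Bmper and 14.7 (12.1 to 17.6) and 14.4 (8.08 to 23.8) of Chrdl1 in ectocranial mesenchyme-like cells, and 24.5 (19.9 to 29.9) and 40.5 (21.6 to 69.3) of Bmper in dura mater-like cells. Unnamed cluster S7, of which 208 of 214 cells came from library 1, held 52.5 (46.5 to 59.1) of Nog and 22.3 (18.4 to 26.7) of Chrdl1. Unnamed cluster S1, of which 493 of 498 cells came from library 2, held 27.8 (22.6 to 33.8) of Chrdl1. Xist, Mmp13 and haemoglobin genes were among the leading genes of S1. At E16.5, hypodermis-like cells, of which 121 of 122 came from library 1, held 144 (105 to 194) of Bmp3 and 112 (77.3 to 156) of Bmp7, and osteoblast-like cells held 66.2 (28.6 to 130.4) of Bmp3. Chondrocyte-like cells held 159 (94.3 to 251) of Gdf10. The E16.5 cells gave few UMIs in all, from 7 of Bmp5 and 18 of Bmp6 to 64 of Bmp3 and 68 of Gdf10, against 254 (Bmp5) to 2548 (Gdf10) at E18.5 apart from the 21 of Bmp6, and no order of the clusters at E16.5 was drawn for most members.

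**Figure D5:**
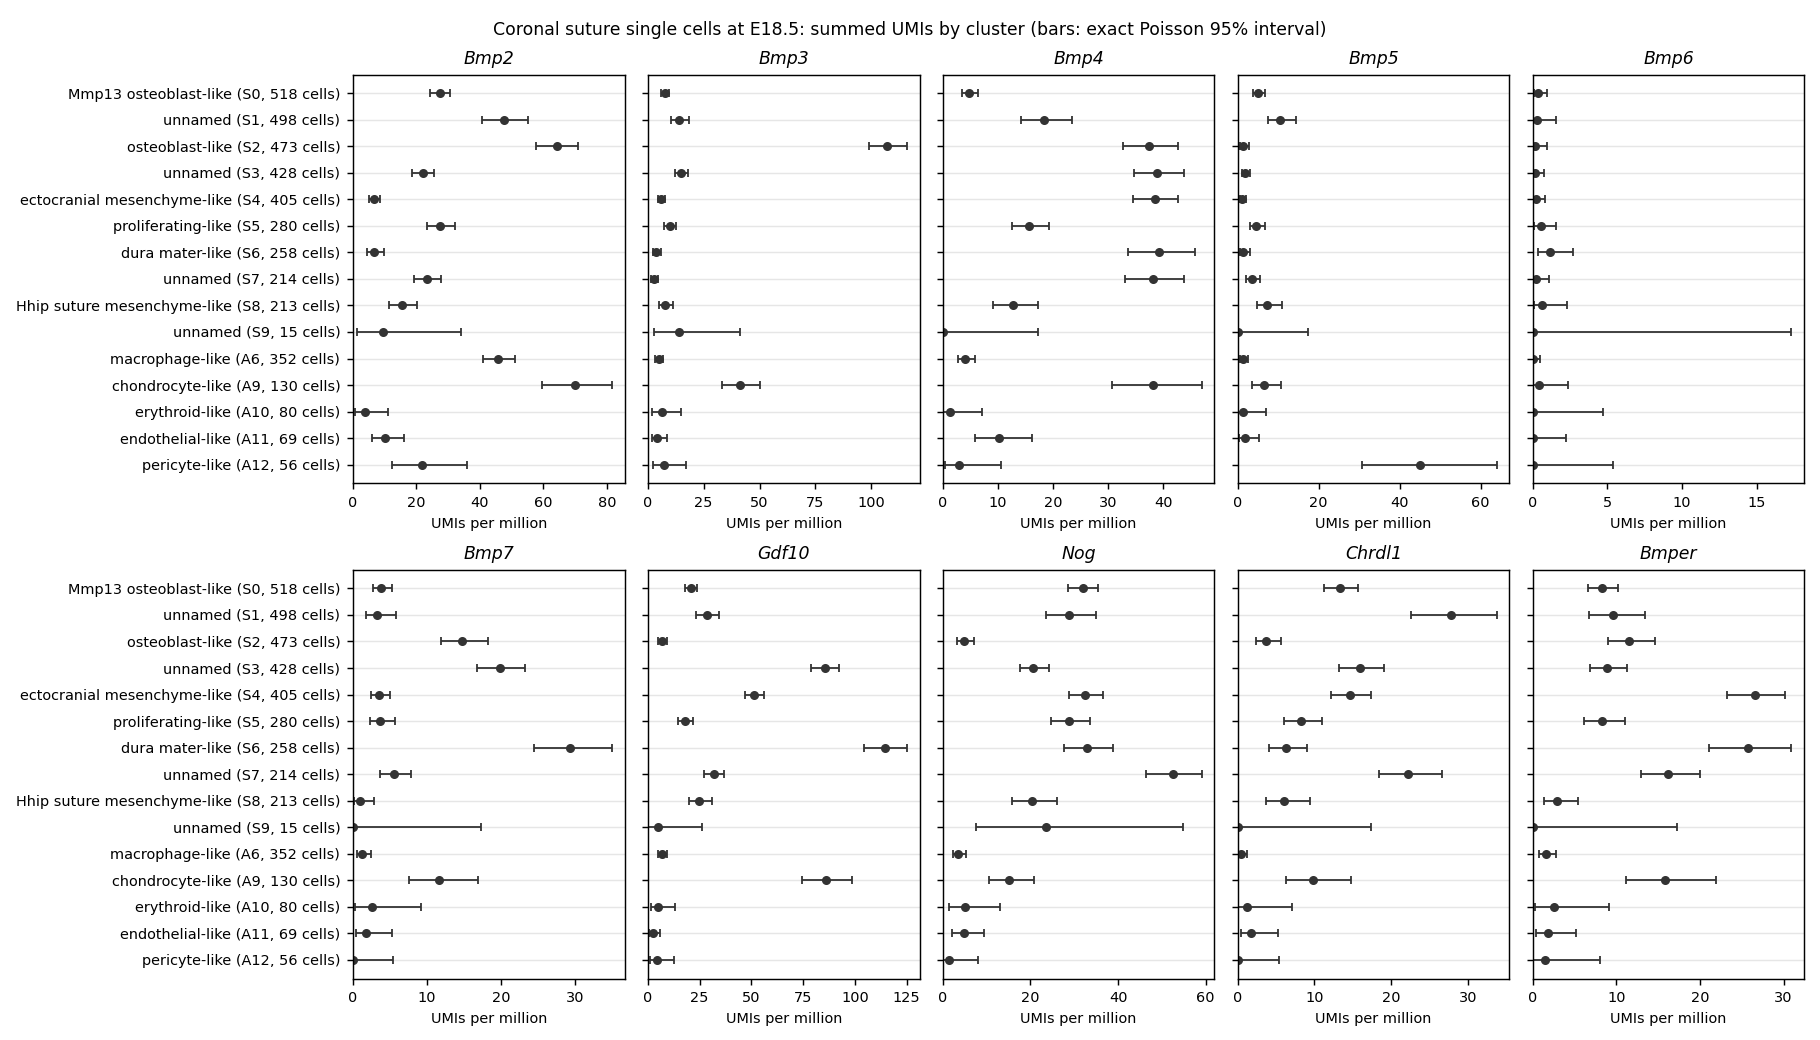
Level of each member (CPM of the UMIs summed over both libraries, x axis) in the cell clusters of the coronal suture at E18.5, 1 panel per gene and 1 row per cluster, with its number of cells, and with exact Poisson 95% intervals as bars. Bmp3 was highest in osteoblast-like cells and Gdf10 in dura mater-like cells at E18.5.

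Complete sutures at E18.5, 4 libraries per suture that carry the same replicate number, were given as medians with the lowest and highest value. Bmp3 was 214 (192 to 246) CPM in the coronal, 134 (124 to 139) in the lambdoid, 68.9 (55.5 to 71.4) in the sagittal and 61.6 (55.7 to 73.8) in the frontal suture. Chrdl1 was 117 (94.2 to 125) CPM in the frontal suture and 35.6 (25.9 to 37.1) in the coronal suture, and Gdf10 20.8 (19.9 to 25.8) CPM in the coronal and 43.1 (36.4 to 46.7) in the frontal suture. Bmp2 was 25.3 (20.7 to 27.8) CPM in the coronal suture and 12.3 (10.3 to 14.3) in the sagittal suture, and Bmp7 was 22.0 (20.6 to 24.04) and 10.2 (7.26 to 14.8). These libraries hold SM and bone edges together, were given no test, and cannot separate the regions.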

How the data were processed

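Per the labels, RNA of laser-captured tissue was extracted with the Picopure kit, amplified with the Ovation RNA-Seq System V2 and made into Nextera XT libraries. The submitters' processing notes name cutadapt, STAR 2.5.3a, featureCounts 1.6.4, Seurat and mm10, and the authors counted read pairs over GENCODE vM22 exons without regard to strand. The values used were the deposited raw counts per gene (100 first libraries, 18 second coronal libraries and 16 complete sutures) and the UMI counts per cell that the authors deposited. The 62 columns that hold the authors' own comparisons as log2 ratios were not used. Gene names came from GENCODE vM21, which named 55394 of 55487 genes, and promoters from RefSeq (GRCm38.p6).

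A gene was tested (19768 in all) when more than 10% of first libraries reached 1 CPM. edgeR 4.0.16 (R 4.3.3, TMM scaling, quasi-likelihood test, two-sided) was fitted with 1 mean per group over all 20 groups, and p-values were adjusted by Benjamini-Hochberg over all genes within each comparison, with a threshold of 0.05. CPM use the scaled library sizes. SEs are on the log2 scale and were derived from the test, as the absolute log2 fold change over the square root of its F statistic. Alternatives were DESeq2 1.42.0, limma 3.58.1 (voom), other scalings and filters, single sutures, the second coronal libraries, each replicate left out and the embryo as a block. SM and OFs of an embryo carry the same litter and replicate number in the labels. Their residuals correlated with a median of 0.0505 over 60 same-embryo pairs, against -0.0121 for other pairs, and 16 of the 60 were over 0.1. The scripts were tested on simulated counts.

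Single cells with over 800 genes and within 3 median absolute deviations were kept, and clustered with scanpy 1.11.5 and leidenalg 0.10.2 (2000 variable genes without the members, 13 components at E16.5 and 15 at E18.5, resolution 0.8), with the suture cells (clusters S) clustered again apart from the others (clusters A). Clusters S could take only names of suture cell types. From marker lists, a cluster was named if at least 3 of its 10 leading genes marked 1 type and at most 2 marked others. That rule was set after the clusters were seen.

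The text names all 10 members, up to 4 genes of each pathway list with the largest difference between SM and OF past the threshold, and the 3 genes most like each member, of which 1 is not reported here. The members and lists were chosen with earlier results of these data known, and the lists for dura mater, ectocranial mesenchyme, hypodermis, proliferating, Hhip suture mesenchyme, Mest suture mesenchyme, periosteal and Mmp13 osteoblast cells take names the study gave on these libraries, so they are not independent of them.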

Additional observations from a re-analysis of the deposited data

Results flagged for a closer look

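Of 240 groups of 4 or 5 libraries examined, 15 held 1 library that lay far from the others of its group, and chance alone would mark about 1 in 20 groups. In FR of the coronal suture at E18.5, embryo 2 was flagged as high for 3 members, with 41.6 CPM of Bmp2, 32.4 CPM of Bmp7 and 4.76 CPM of Nog. Without a flag, it was also the highest of that group for Bmp4 and Bmper. In FR of the frontal suture at E18.5, embryo 5 was flagged as high for 2 members, with 243 CPM of Chrdl1 and 63.4 CPM of Bmp4. SM of the same embryo was flagged as high for Bmp6 at 13.3 CPM. Embryo 3 was the highest of lambdoid SM at E18.5 for Bmp2 (9.41 CPM) and the lowest of lambdoid PA at E18.5 for Bmp3 (83.0 CPM). Other high values were 46.7 CPM of Bmp7 in frontal FR at E16.5, 46.5 CPM of Gdf10 in frontal SM at E16.5, 23.7 CPM of Gdf10 in coronal PA at E18.5, 3.31 CPM of Nog in coronal PA at E16.5 and 4.46 CPM of Nog in lambdoid SM at E16.5. The remaining low values were 26.8 CPM of Bmp4 in sagittal PA at E18.5 and 55.5 CPM of Bmp3 in 1 of the complete sagittal sutures.

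The difference of SM less OF was itself tested between groups and passed 7 times. Between the coronal suture and the others it differed by 3.44 for Nog, 2.07 for Chrdl1, 1.24 for Gdf10, 0.81 for Bmp2, -1.25 for Bmp4 and -0.76 for Bmper on the log2 scale. The coronal value did not lie apart from the frontal one for Bmp2, or from the frontal and sagittal ones for Bmper. Between E18.5 and E16.5 it differed by -1.08 for Bmp3.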

How the results depend on the processing

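Of 4223 recomputed values of members in single comparisons, 3974 kept their direction and their side of the threshold, 162 no longer passed, 81 newly passed and 6 reversed. In the mean of SM less OF over all sutures, Bmp4 no longer passed with total counts (-0.18) or without the coronal suture (-0.0083), and ranged from -0.36 to -0.20 with 1 replicate left out. Gdf10 no longer passed without the coronal suture (0.35). In the mean of the coronal suture, taken from the same fit of all groups, Nog (1.55) and Chrdl1 (0.49) reversed. Of the 8 calls between the 2 OFs of a suture, 5 were lost when each suture was fitted by itself and 2 values newly passed (Bmp4 and Chrdl1 in IP less PA of the lambdoid suture at E16.5), which gave 5 calls. They were 5 with the second coronal libraries in place of the first, 3 being lost, and 4 to 7 with 1 replicate left out. The stage change of SM less OF called 1 member, and 0 to 1 with 1 replicate left out, 0 being without replicate 5. The second coronal libraries in place of the first reversed Bmp5 in SM less FR at coronal E16.5 (-0.24), Nog in E18.5 less E16.5 of coronal FR (-0.30), Bmper in the comparison of the coronal suture with the others (0.14) and Nog in FR less PA at coronal E16.5 (1.55). The last was also 0.51 with both libraries summed and ran from -2.95 to 0.047 with 1 replicate left out, the latter without replicate 3. The cause was not tested.

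With the embryo as a replicate block, 174 of 180 values stayed on their side of the threshold. The block changed the calls of Bmp2 and Bmp5 against coronal FR, of Nog between coronal OFs and of Bmper between sutures, as given beside them, and Bmp3 in SM less PA and Chrdl1 in IP less PA, both in the lambdoid suture at E16.5, newly passed. It changed no other call. The calls of SM against each OF went from 66 to 65, those of OF against OF stayed at 8 with 1 lost and 1 new, and those over all sutures stayed at 9. A block could not be fitted for stage, since no embryo has both stages, and single sutures could not give comparisons across sutures. Of 920 recomputed single-cell levels, 51 lay outside the interval of the value given, 21 of them with the stricter minimum of genes per cell. At the depth of these libraries 1 count is a large share of Nog, and of Bmp5 in parietal edges.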
